A study of Homo sapiens with 12 samples.

Results

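Growth as a tumour was compared with growth in culture in 786-O cells that re-express BBOX1. The comparison used 6 of the 12 libraries of the series, chosen by their labels: 3 BBOX1 xenografts and 3 BBOX1 cells. 786-O is a long-established human cell line from a clear cell renal carcinoma, a tumour that arises from the renal tubule and typically has lost the VHL protein. Both groups carried a lentiviral vector for BBOX1 and had been selected with puromycin or neomycin, depending on the vector. The xenografts had grown in NOD SCID gamma (NSG) mice, 6 to 8 weeks old and on a regular diet, and were homogenised whole, and the cells had grown in plates in DMEM with fetal serum. The empty-vector xenografts and empty-vector cells, 3 libraries each, entered only the comparisons with the empty vector at the end and 1 alternative fit. All libraries held polyadenylated RNA, read as raw counts per gene.

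BBOX1 makes carnitine from its immediate precursor, and carnitine carries long-chain fatty acids into mitochondria for oxidation. Cells without VHL keep HIF transcription factors active, so that genes of the response to low oxygen are expressed in culture as well. NSG mice lack T, B and natural killer cells but keep fibroblasts, endothelium and myeloid cells, which reach a tumour with its vessels and stroma. In whole tumours, fewer cells of a type and less RNA per cell cannot be told apart.

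BBOX1 itself (chromosome 11, 27040725 to 27127809, plus strand, GRCh38, GENCODE release 29) was present in all 6 libraries, as the labels state. It had 1287, 1392 and 1920 CPM in BBOX1 xenografts, against 1079, 1094 and 1069 CPM in BBOX1 cells (counts per 1000000, CPM, on library sizes scaled by TMM; log2 fold change 0.51, SE 0.15, edgeR adjusted p = 0.0135). Each xenograft exceeded each culture, and the second and first xenografts lay closer to the cultures than the third. With any 1 of the cell libraries left out the call was lost, at edgeR adjusted p = 0.0514 to 0.0609.

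Total counts were 13729031, 15054113 and 16159837 in BBOX1 xenografts, against 26758712, 18272906 and 15627686 in BBOX1 cells. The labels do not say whether replicates came from separate animals or cultures, so p-values measure the spread between these libraries, which may be technical. That spread was unequal: the biological coefficient of variation was 19.3% among xenografts and 3.15% among cells. The fit used 1 spread for both groups (13.7%), which lies below that among xenografts. For genes that vary among tumours, p-values may therefore be too small. Xenograft replicate 1 stood apart, with a chi-square per degree of freedom of 45.9 and 45.6 against the other two xenografts, which differed from each other by 9.41. Mitochondrially encoded genes took 7.96%, 12.6% and 13.7% of counts in the xenografts, against 3.22% in every culture.

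Markers of other cell types were read on human genes alone (build hg38), while the host is a mouse, and whether mouse reads were removed is not given in the sources used here. How much mouse tissue a tumour held was not measured. Among macrophage markers PTPRC, C1QA, TYROBP and LYZ had 0 counts in xenografts, whereas ITGAM had 58 counts over the 3 xenografts and 9 over the cells. CD14 had 17 counts in xenografts and 8 in cells, MRC1 10 in xenografts and 0 in cells, and CSF1R 82 in xenografts and 155 in cells. Of neutrophil markers, CSF3R had 12 counts in xenografts and 0 in cells. CDH5 and ERG of endothelium had 0 counts. Summed levels of the 14 macrophage markers were 3.64 to 4.39 CPM on unscaled totals in xenografts and 2.46 to 3.85 in cells, with 8 to 10 and 8 to 11 markers at 0. The 12 endothelial markers summed to 6.99 to 9.69 CPM in xenografts and 19.1 to 19.3 in cells, with 4 to 6 and 6 markers at 0. EGFL7 made up most of both sums, with 205 counts over the xenografts and 1029 over the cells. PECAM1 had 10 counts in xenografts and 1 in cells, TEK 17 and 7, VWF 2 and 0, and ESAM 94 and 87. TIE1 had 23 and 27, CLDN5 8 and 10, and KDR 2 and 2. The 12 fibroblast markers summed to 296 to 379 CPM in xenografts and 12.6 to 15.0 in cells, with 1 to 3 and 2 to 5 at 0. Of 7 tested fibroblast markers 5 rose, none fell and 2 did not pass. COL1A1 and COL3A1 made up most of that sum, with 10906 and 3714 counts over the 3 xenografts and 431 and 6 over the cells. The others that rose were RGS5 with 675 counts in xenografts and 142 in cells, ACTA2 with 262 in xenografts and 81 in cells, and FAP with 64 in xenografts and 0 in cells. COL1A2 had 3 counts in xenografts and 0 in cells, DCN 1 and 1, and PDGFRA 2 and 4. LUM had 120 counts in xenografts and 108 in cells, and POSTN 10 and 2. PDGFRB and THY1 had fewer counts in xenografts, 18 against 50 and 16 against 29. Neutrophil, erythroid, adipocyte and skeletal muscle markers summed to at most 9.28 CPM in any of the 6 libraries. Skeletal muscle markers had 3.12 to 4.58 CPM in xenografts and 0.0547 to 0.640 in cells, and neutrophil markers 0.66 to 0.99 and 0 to 0.0747. Adipocyte markers had 5.32 to 9.28 and 2.62 to 4.11, and erythroid markers 0.0619 to 0.146 and 0.0547 to 0.384. The largest muscle marker was TNNT3, with 88 counts over the xenografts and 0 over the cells. Keratinocyte markers summed to 81.6 to 87.0 CPM in xenografts and 120 to 122 in cells, mostly KRT10 and FLG. Lymphocyte markers held NCAM1 almost alone, with CD3E, CD8A and MS4A1 at 0 counts. The part of host cells in the results was not tested.

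In tumours, most tested genes of the renal, ciliary, NF-kappaB, interferon and complement lists were higher than in culture, and most of those of proliferation, cholesterol and fatty acid synthesis, and amino acid supply were lower. Of 15906 genes tested, 5740 (36.1%) were higher and 5100 (32.1%) lower in BBOX1 xenografts than in BBOX1 cells at an edgeR adjusted p under 0.05. A change of at least 2-fold was reached by 3592 genes (22.6%) upward and 2000 (12.6%) downward. The median log2 fold change of all genes tested was 0.07. In 11788 of the 15906 genes the xenografts and the cells did not overlap in CPM. A lack of overlap alone thus does not set a gene apart. Among 32 pathway lists, 17 held more risen than fallen members, 11 more fallen than risen and 4 equal numbers. Each list is read below against these shares of all genes. The lists named 1006 entries, of which 99 had too few counts to be tested. Members silent in culture were tested only where tumours held reads, so for lists near silent in culture the counts and medians describe the tested members alone. Untested were 20 of 51 members of the renal list, 11 of 43 of the cilium list, 11 of 30 of the complement list and 9 of 13 of the MHC class II list.

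**Figure D1:**
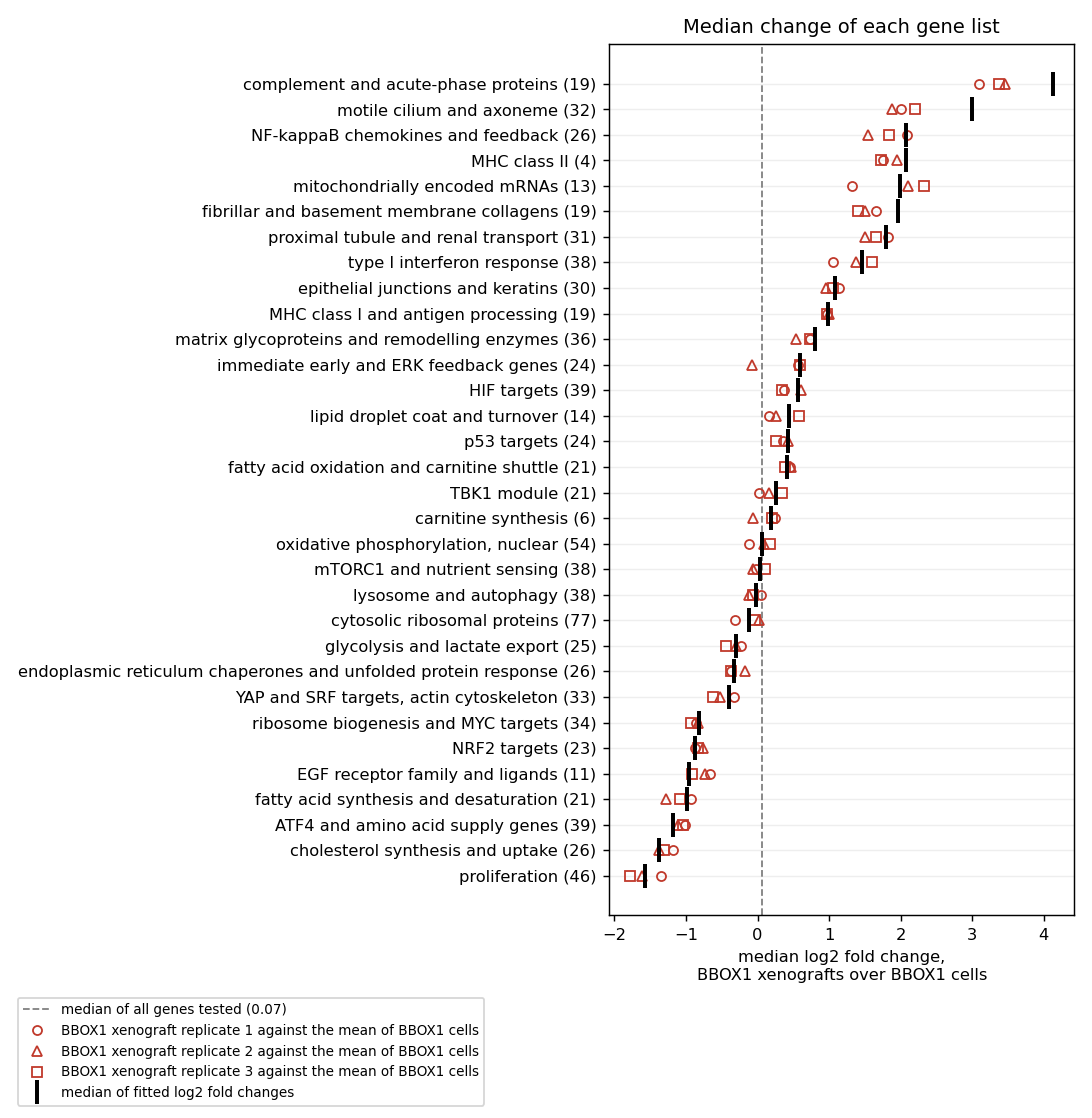
Median log2 fold change of the tested members of each of 32 gene lists (number in brackets), BBOX1 xenografts over BBOX1 cells. Black bars are medians of the fitted values, red symbols are medians of log2(CPM + 0.5) in each xenograft library minus the mean of the cells, which understates the change of low genes, and the dashed line is the median of all genes tested, 0.07. Complement (4.13) and cilium genes (2.99) lie at the upper end, proliferation genes (-1.57) at the lower, and the 3 xenografts lie on the same side for each of these.

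The largest rises were of genes that were silent or nearly so in culture. PIGR, the receptor that carries polymeric immunoglobulins across epithelia, had 546, 292 and 288 CPM in BBOX1 xenografts, against 0.0371, 0 and 0 CPM in BBOX1 cells (ratio 22868 in favour of the xenografts, 95% counting interval 4104 to 903300, edgeR adjusted p = 3.57e-07). CXCL14, an epithelial chemokine whose exons overlap those of SLC25A48, had 44.6, 24.7 and 40.5 CPM in BBOX1 xenografts, against 0, 0 and 0 CPM in BBOX1 cells (at least 750-fold higher, edgeR adjusted p = 6.06e-06). Intervals of such ratios cover counting error only. The bounds set 3 counts over the cells in place of 0 and have no interval. Both genes were read in each tumour, whereas the cultures held a single read of PIGR and none of CXCL14.

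Secreted proteins in this group included IGFBP5, which binds insulin-like growth factors. IGFBP5 had 2193, 2546 and 2180 CPM in BBOX1 xenografts, against 1, 0.758 and 0.441 CPM in BBOX1 cells (log2 fold change 11.53, SE 0.22, edgeR adjusted p = 1.58e-08). TFF3, a mucosal peptide, had 19.7, 12.8 and 20.3 CPM in BBOX1 xenografts, against 0, 0 and 0 CPM in BBOX1 cells (at least 361-fold higher, edgeR adjusted p = 6.33e-06). TCN1, a cobalamin-binding protein, had 30.6, 15.9 and 22.9 CPM in BBOX1 xenografts, against 0, 0 and 0 CPM in BBOX1 cells (at least 473-fold higher, edgeR adjusted p = 9.8e-06). The 3 tumours were alike for IGFBP5, and the middle tumour was lowest for TFF3 and TCN1.

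Intracellular proteins in the same group were FABP7, CRYAB, ACSM2B and NOD2. FABP7, a fatty acid binding protein, had 191, 116 and 178 CPM in BBOX1 xenografts, against 0, 0.162 and 0 CPM in BBOX1 cells (ratio 3310 in favour of the xenografts, 95% counting interval 1132 to 16053, edgeR adjusted p = 3.41e-07). CRYAB, a small heat shock protein whose annotated exons overlap HSPB2, had 213, 322 and 612 CPM in BBOX1 xenografts, against 0.0742, 0.217 and 0.126 CPM in BBOX1 cells (log2 fold change 11.44, SE 0.61, edgeR adjusted p = 1.53e-06). NOD2, a cytosolic sensor of bacterial peptidoglycan, had 7.92, 23.2 and 13.6 CPM in BBOX1 xenografts, against 0, 0 and 0 CPM in BBOX1 cells (at least 304-fold higher, edgeR adjusted p = 6.16e-05). CRYAB and NOD2 varied more than 2-fold between tumours. That all tumours lay above all cultures was a condition for naming genes by fold. ACSM2B, a medium-chain acyl-CoA synthetase of kidney and liver, had 28.8, 21.7 and 32.2 CPM in BBOX1 xenografts, against 0, 0 and 0 CPM in BBOX1 cells (at least 565-fold higher, edgeR adjusted p = 2.44e-06), but its near-identical copy ACSM2A makes its count uncertain. IGFL2, of a family of secreted peptides, had 9.31, 20.1 and 16.1 CPM in BBOX1 xenografts, against 0, 0 and 0 CPM in BBOX1 cells (at least 311-fold higher, edgeR adjusted p = 2.07e-05). ADGRG5, an adhesion receptor, had 44.1, 32.1 and 64.2 CPM in BBOX1 xenografts, against 0, 0 and 0.063 CPM in BBOX1 cells (ratio 2894 in favour of the xenografts, 95% counting interval 519 to 114380, edgeR adjusted p = 1.13e-06). IGFBP3, another binder of insulin-like growth factors, was expressed in culture as well and was named by its gain in CPM, with 6092, 8430 and 7732 CPM in BBOX1 xenografts, against 1408, 1499 and 1506 CPM in BBOX1 cells (log2 fold change 2.33, SE 0.14, edgeR adjusted p = 2.63e-06).

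**Figure D2:**
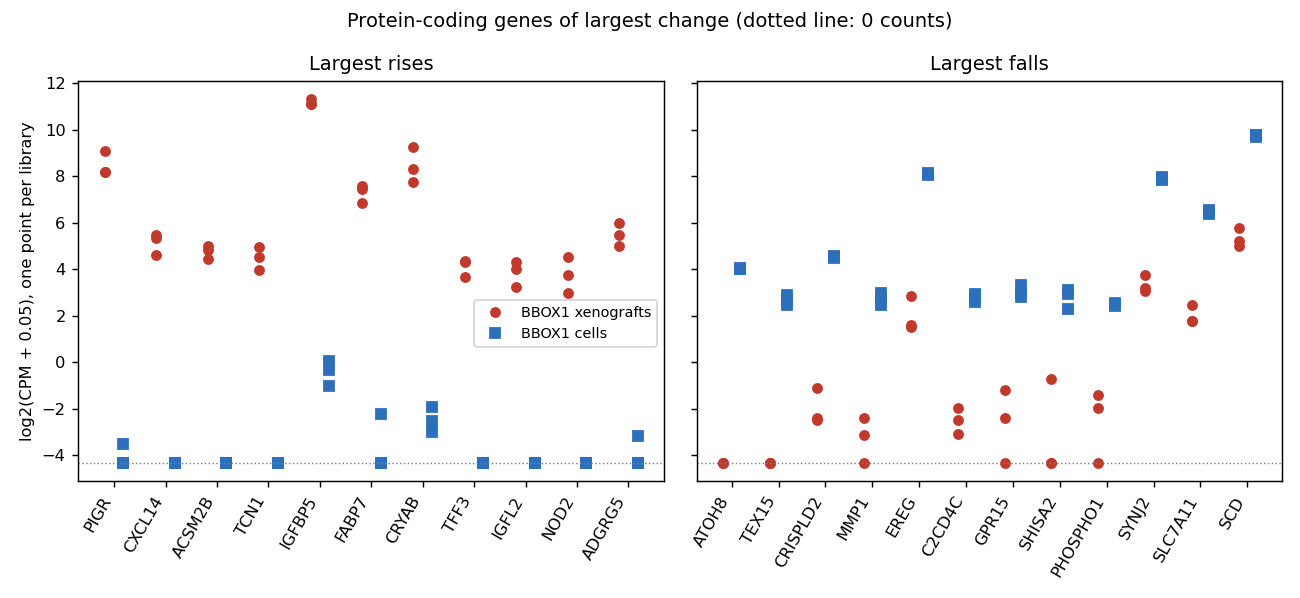
Levels of protein-coding genes named for the largest rises (left) and the largest falls (right) by fitted log2 fold change, as log2(CPM + 0.05), 1 point per library, with BBOX1 xenografts (red circles) left of BBOX1 cells (blue squares). That all xenografts lie on one side of all cells was a condition for naming these genes, and the dotted line marks 0 counts.

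Most tested genes of the renal tubule rose. Of 31 tested genes of the proximal tubule and renal transport, 22 rose, 2 fell and 7 did not pass, with a median log2 fold change of 1.79 against 0.07 for all genes. AQP1, the water channel of the proximal tubule, had 199, 104 and 115 CPM in BBOX1 xenografts, against 0.26, 0.0541 and 0.126 CPM in BBOX1 cells (log2 fold change 9.69, SE 0.43, edgeR adjusted p = 6.17e-07). SLC22A2, an organic cation transporter, had 14.7, 7.93 and 8.8 CPM in BBOX1 xenografts, against 0, 0.0541 and 0 CPM in BBOX1 cells (ratio 640 in favour of the xenografts, 95% counting interval 114 to 25349, edgeR adjusted p = 4.65e-06). LRP2, which encodes megalin, the endocytic receptor of the tubule, had 3.34, 1.46 and 1.04 CPM in BBOX1 xenografts, against 0, 0 and 0 CPM in BBOX1 cells (at least 39.3-fold higher, edgeR adjusted p = 0.000608). All 3 were close to or at 0 in culture, and for each of them the first tumour was the highest. The 2 that fell were WT1, a transcription factor of the developing kidney and podocyte, and ANPEP, a brush border peptidase. WT1 had 13.8, 13.3 and 10.2 CPM in BBOX1 xenografts, against 21.4, 22.3 and 19.1 CPM in BBOX1 cells (log2 fold change -0.76, SE 0.14, edgeR adjusted p = 0.00136), and ANPEP had 69, 71.3 and 71 CPM in BBOX1 xenografts, against 80.2, 82 and 83.7 CPM in BBOX1 cells (log2 fold change -0.22, SE 0.08, edgeR adjusted p = 0.0334). Both falls were small beside the rises, although no tumour reached any culture. The call of ANPEP was lost under 7 of 15 alternatives, each cell library left out among them, at edgeR adjusted p = 0.0528 to 0.169. Without xenograft replicate 1, 5 members passed as lower, and without any 1 cell library 1 did.

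Of 32 tested genes of the motile cilium and its axoneme, 27 rose, none fell and 5 did not pass, with a median of 2.99. FOXJ1, the transcription factor that drives motile cilium genes and a list member chosen here after its values were seen, had 14, 15.9 and 15.3 CPM in BBOX1 xenografts, against 0.334, 0.271 and 0.504 CPM in BBOX1 cells (log2 fold change 5.36, SE 0.23, edgeR adjusted p = 5.63e-07). RSPH1, a radial spoke protein, had 7.3, 6.12 and 8.93 CPM in BBOX1 xenografts, against 0.0742, 0.108 and 0.063 CPM in BBOX1 cells (log2 fold change 6.39, SE 0.36, edgeR adjusted p = 1.9e-06). VWA3A had 3.47, 3.06 and 5.05 CPM in BBOX1 xenografts, against 0, 0.108 and 0 CPM in BBOX1 cells (ratio 119 in favour of the xenografts, 95% counting interval 32.5 to 992, edgeR adjusted p = 3.33e-05), and C1orf194, whose annotated exons overlap KIAA1324, had 2.99, 2.92 and 3.43 CPM in BBOX1 xenografts, against 0, 0.0541 and 0 CPM in BBOX1 cells. Tumour levels of these 4 genes were at most 15.9 CPM. The tumours did not overlap the cultures, as in 11788 of all 15906 genes tested.

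Most tested inflammatory genes rose, in several classes. Of 26 tested NF-kappaB target chemokines and feedback genes, 22 rose, 2 fell and 2 did not pass, with a median of 2.07. With no filter on low counts, 4 of 29 passed as lower in place of 2. CCL20, a chemokine for cells bearing CCR6, had 50, 44 and 56.5 CPM in BBOX1 xenografts, against 0, 0.379 and 0 CPM in BBOX1 cells (log2 fold change 8.69, SE 0.45, edgeR adjusted p = 1.32e-06). CCL2, which attracts monocytes, had 62.2, 54.5 and 61.6 CPM in BBOX1 xenografts, against 0.816, 0.487 and 1.01 CPM in BBOX1 cells (log2 fold change 6.26, SE 0.19, edgeR adjusted p = 1.09e-07). CXCL1, which attracts neutrophils, had 83.6, 85.9 and 149 CPM in BBOX1 xenografts, against 1.97, 1.52 and 2.02 CPM in BBOX1 cells (log2 fold change 5.85, SE 0.29, edgeR adjusted p = 1.04e-06). CXCL1 was highest in the third tumour, and the other chemokines were even across the tumours. The 2 that fell were cytokines: IL11 had 1.11, 3.83 and 1.42 CPM in BBOX1 xenografts, against 11.3, 10.2 and 10.8 CPM in BBOX1 cells (log2 fold change -2.35, SE 0.37, edgeR adjusted p = 0.000495), and CSF1, the growth factor of macrophages, had 93.5, 97.2 and 101 CPM in BBOX1 xenografts, against 240, 245 and 251 CPM in BBOX1 cells (log2 fold change -1.34, SE 0.08, edgeR adjusted p = 2.67e-06). CSF1 was thus lower in tumours while CCL2 was higher. The summed macrophage markers were at 3.64 to 4.39 CPM in xenografts and 2.46 to 3.85 in cells. These sums were read on human genes while the host is a mouse, so host macrophages were not measured.

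Of 30 complement and acute-phase genes, 19 were tested, and of these 16 rose, 1 fell and 2 did not pass, with a median of 4.13 over the tested members. C4A and C4B, which encode the fourth component of complement and are near-identical copies whose reads may have been split between them, had similar changes. C4A had 106, 43.1 and 95.8 CPM in BBOX1 xenografts, against 0.89, 1.03 and 0.883 CPM in BBOX1 cells (log2 fold change 6.45, SE 0.40, edgeR adjusted p = 3.23e-06), and C4B had 61.3, 68 and 72.5 CPM in BBOX1 xenografts, against 0.148, 0.758 and 0.378 CPM in BBOX1 cells (log2 fold change 7.38, SE 0.29, edgeR adjusted p = 3.57e-07). LCN2, a siderophore-binding protein that damaged tubules secrete, had 3.89, 6.33 and 4.79 CPM in BBOX1 xenografts, against 0.0371, 0 and 0 CPM in BBOX1 cells (ratio 306 in favour of the xenografts, 95% counting interval 54.4 to 12154, edgeR adjusted p = 6.77e-06). The member that fell was CD55, which protects cells from complement, with 10.5, 7.02 and 9.58 CPM in BBOX1 xenografts, against 16.2, 17.9 and 16.9 CPM in BBOX1 cells (log2 fold change -0.91, SE 0.16, edgeR adjusted p = 0.00096). Without xenograft replicate 1, 3 members passed as lower, and without xenograft replicate 2 or 3 or cell replicate 2, 2 did.

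Of 38 tested genes of the type I interferon response, 29 rose, 3 fell and 6 did not pass, with a median of 1.46. These genes respond through promoter elements bound by the STAT and IRF factors of interferon signalling. Promoter windows of RefSeq (GRCh38.p14, from 250 bases before to 50 bases after the annotated start) were matched for 30 of the 38. The letters GAAANNGAAA, the core of the interferon-stimulated response element, occurred on either strand in 18 of these 30 windows (60%). They occurred in 1255 of 35116 promoter windows of all genes (3.57%). The list was counted with 1 window per gene and the background over all windows without that limit, so these shares may differ in unit. Of the 18 genes with the motif, 13 rose, 3 fell and 2 did not pass. Of the 12 without it, 10 rose, none fell and 2 did not pass. The median log2 fold change was 1.49 with the motif and 1.42 without it. A match describes the letters alone. The windows of 4 genes that rose and 1 that fell are shown, with the motif in capitals (as TTTCNNTTTC where it lies on the other strand). IFI6 and MX1 were chosen after their values were seen.
IFITM1 (chr11:313790-314089, plus strand): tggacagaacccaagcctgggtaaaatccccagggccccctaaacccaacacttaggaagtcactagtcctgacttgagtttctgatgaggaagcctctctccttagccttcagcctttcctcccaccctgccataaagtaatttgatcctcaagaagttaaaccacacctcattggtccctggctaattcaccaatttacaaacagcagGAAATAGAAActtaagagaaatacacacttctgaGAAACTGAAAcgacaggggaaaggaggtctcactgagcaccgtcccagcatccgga
IFI27 (chr14:94110486-94110785, plus strand): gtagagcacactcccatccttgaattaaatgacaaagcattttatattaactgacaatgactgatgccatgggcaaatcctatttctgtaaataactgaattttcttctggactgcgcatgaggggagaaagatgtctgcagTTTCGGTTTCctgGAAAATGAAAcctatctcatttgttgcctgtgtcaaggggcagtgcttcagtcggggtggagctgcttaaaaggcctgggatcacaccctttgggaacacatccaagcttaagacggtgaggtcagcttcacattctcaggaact
IFI6 (chr1:27672143-27672442, minus strand): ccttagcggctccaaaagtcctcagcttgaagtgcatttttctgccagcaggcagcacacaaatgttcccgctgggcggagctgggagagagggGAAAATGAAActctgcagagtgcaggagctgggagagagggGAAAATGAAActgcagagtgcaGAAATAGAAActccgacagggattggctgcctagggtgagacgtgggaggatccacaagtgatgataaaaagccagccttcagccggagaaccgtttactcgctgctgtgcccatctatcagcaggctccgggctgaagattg
MX1 (chr21:41420308-41420607, plus strand): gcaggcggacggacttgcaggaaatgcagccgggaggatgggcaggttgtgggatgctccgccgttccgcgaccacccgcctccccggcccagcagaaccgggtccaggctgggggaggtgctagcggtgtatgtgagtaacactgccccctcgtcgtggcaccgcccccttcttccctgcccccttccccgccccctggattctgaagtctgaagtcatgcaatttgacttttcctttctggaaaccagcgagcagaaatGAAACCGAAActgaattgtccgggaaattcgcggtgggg
IFIT3 (chr10:89327747-89328046, plus strand): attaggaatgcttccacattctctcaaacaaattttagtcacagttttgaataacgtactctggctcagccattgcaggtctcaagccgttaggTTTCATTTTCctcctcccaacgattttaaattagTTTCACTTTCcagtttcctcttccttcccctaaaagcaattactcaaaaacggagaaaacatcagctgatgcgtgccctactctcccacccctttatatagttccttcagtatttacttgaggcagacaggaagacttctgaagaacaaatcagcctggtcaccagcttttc

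IFI27, a mitochondrial interferon-induced protein, had 65.2, 107 and 123 CPM in BBOX1 xenografts, against 2.19, 1.14 and 2.52 CPM in BBOX1 cells (log2 fold change 5.65, SE 0.32, edgeR adjusted p = 1.95e-06). IFITM1, which restricts viral entry and shares sequence with IFITM2 and IFITM3, so that its count is uncertain, had 8.13, 20.5 and 19 CPM in BBOX1 xenografts, against 0.148, 0.0541 and 0.315 CPM in BBOX1 cells (log2 fold change 6.54, SE 0.54, edgeR adjusted p = 1.32e-05). OAS2, an enzyme that senses double-stranded RNA, had 21, 24.1 and 27.6 CPM in BBOX1 xenografts, against 0.705, 0.65 and 0.756 CPM in BBOX1 cells (log2 fold change 5.09, SE 0.19, edgeR adjusted p = 2.97e-07). For each of these the first tumour was lowest, yet it was above every culture. IFI6 had 185, 248 and 292 CPM in BBOX1 xenografts, against 14.2, 12.5 and 15.1 CPM in BBOX1 cells (log2 fold change 4.12, SE 0.18, edgeR adjusted p = 5.91e-07). MX1, a GTPase that blocks viral replication, had 43.8, 50.1 and 50.8 CPM in BBOX1 xenografts, against 3.45, 3.57 and 3.09 CPM in BBOX1 cells (log2 fold change 3.83, SE 0.12, edgeR adjusted p = 1.56e-07). IFIT3, whose window also holds the motif, had 32.3, 28.5 and 27.3 CPM in BBOX1 xenografts, against 43.5, 39.9 and 44.1 CPM in BBOX1 cells (log2 fold change -0.53, SE 0.10, edgeR adjusted p = 0.0014). Promoters with the same motif belonged to genes that rose and to genes that fell. HERC5 had a log2 fold change of -0.53 (edgeR adjusted p = 0.0072) and DTX3L of -0.24 (edgeR adjusted p = 0.048), and their windows hold the motif too. The call of DTX3L was lost under 10 of 15 alternatives, at edgeR adjusted p = 0.0574 to 0.165, among them each cell library and xenograft replicates 2 and 3 left out. Without xenograft replicate 1, 5 members of the list passed as lower.

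Antigen presentation rose in part. Of 19 tested MHC class I and antigen processing genes, 14 rose, 2 fell and 3 did not pass, with a median of 0.98. HLA-B, a class I heavy chain, had 898, 1014 and 1316 CPM in BBOX1 xenografts, against 247, 244 and 245 CPM in BBOX1 cells (log2 fold change 2.13, SE 0.14, edgeR adjusted p = 4.5e-06). Reads of HLA genes can be split among their close copies, which makes its count uncertain. The members that fell were CANX, a chaperone of the endoplasmic reticulum (-0.92, edgeR adjusted p = 0.000536), and ERAP2, a peptidase that trims antigens (-0.60, edgeR adjusted p = 0.00225). Of 4 tested MHC class II genes, 3 rose. CD74, the invariant chain, had 74.8, 61.3 and 69.7 CPM in BBOX1 xenografts, against 4.86, 3.79 and 4.6 CPM in BBOX1 cells (log2 fold change 3.95, SE 0.14, edgeR adjusted p = 1.98e-07), and the macrophage markers given above ranged from 0 counts (PTPRC, C1QA, TYROBP and LYZ) to 58 counts of ITGAM and 82 of CSF1R over the xenografts. Their part in the level of CD74 was not tested.

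**Figure D3:**
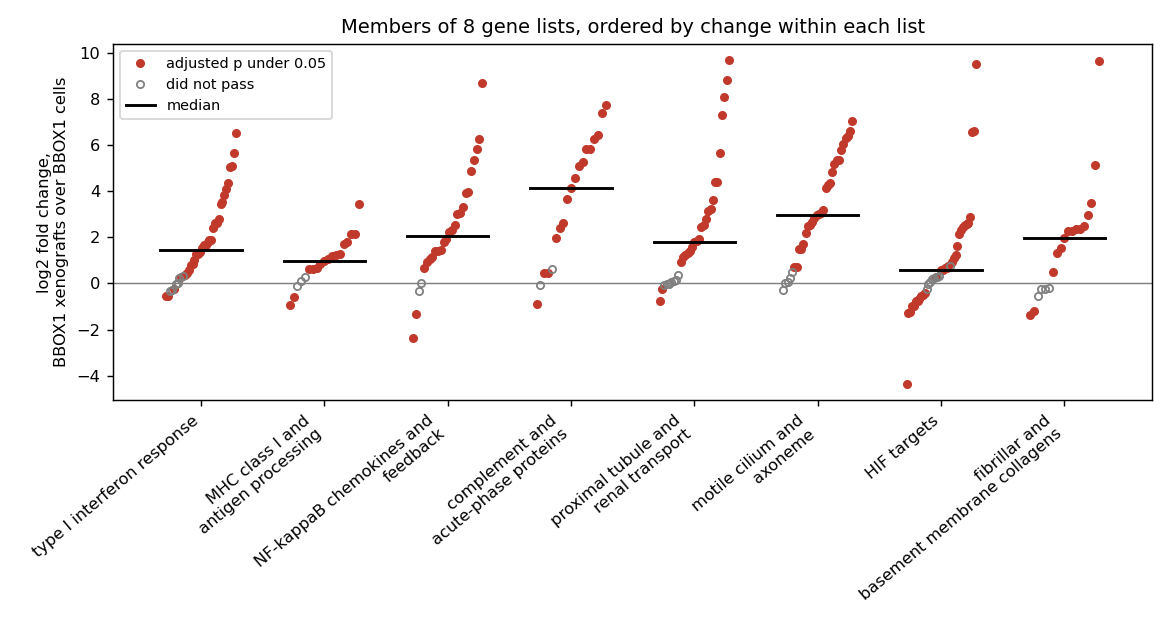
Log2 fold changes (BBOX1 xenografts over BBOX1 cells) of the tested members of 8 gene lists, ordered within each list. Red points passed an edgeR adjusted p of 0.05, open points did not, and black lines are medians. Most members of the interferon, NF-kappaB, complement, renal and cilium lists lie above 0, while HIF targets and collagens spread to both sides.

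HIF targets, the genes that cells induce in low oxygen, divided. Of 39 tested, 20 rose, 11 fell and 8 did not pass, with a median of 0.57. CXCR4, the receptor of CXCL12, had 71.2, 71.9 and 86.9 CPM in BBOX1 xenografts, against 0.111, 0 and 0.189 CPM in BBOX1 cells (log2 fold change 9.51, SE 0.29, edgeR adjusted p = 1.09e-07). EPO, the hormone of red cell production, had 10.4, 18.8 and 15.9 CPM in BBOX1 xenografts, against 0.185, 0.162 and 0.063 CPM in BBOX1 cells (log2 fold change 6.62, SE 0.38, edgeR adjusted p = 2.25e-06). ANGPTL4, an inhibitor of lipoprotein lipase, had 216, 304 and 329 CPM in BBOX1 xenografts, against 2.45, 3.14 and 3.34 CPM in BBOX1 cells (log2 fold change 6.59, SE 0.21, edgeR adjusted p = 1.56e-07). All 3 were nearly silent in culture and were present in each tumour. VEGFA, the growth factor of endothelium, a list member chosen here after its values were seen, had 1708, 2931 and 2646 CPM in BBOX1 xenografts, against 440, 435 and 439 CPM in BBOX1 cells (log2 fold change 2.47, SE 0.19, edgeR adjusted p = 8.83e-06).

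Other HIF targets were lower in tumours. STC2, a secreted glycoprotein that is also a target of ATF4, had 6.74, 2.16 and 3.56 CPM in BBOX1 xenografts, against 80.3, 91.1 and 84.1 CPM in BBOX1 cells (log2 fold change -4.36, SE 0.29, edgeR adjusted p = 4.73e-06). PFKFB3, which makes the activator of phosphofructokinase, had 176, 84.7 and 125 CPM in BBOX1 xenografts, against 309, 313 and 308 CPM in BBOX1 cells (log2 fold change -1.27, SE 0.22, edgeR adjusted p = 0.000797). PGK1, a glycolytic kinase whose annotated exons overlap ATP7A, had 393, 204 and 231 CPM in BBOX1 xenografts, against 643, 657 and 638 CPM in BBOX1 cells (log2 fold change -1.23, SE 0.22, edgeR adjusted p = 0.000944). For all 3 the first tumour was closest to the cultures. The glycolysis list as a whole had 5 risen, 14 fallen and 6 not passing of 25 tested, with a median of -0.29. PGAM1, phosphoglycerate mutase, had 348, 242 and 237 CPM in BBOX1 xenografts, against 933, 916 and 925 CPM in BBOX1 cells (log2 fold change -1.75, SE 0.15, edgeR adjusted p = 1.69e-05). PDK4, a kinase that inactivates pyruvate dehydrogenase, had 17.5, 9.18 and 6.86 CPM in BBOX1 xenografts, against 2.08, 1.84 and 2.33 CPM in BBOX1 cells (log2 fold change 2.42, SE 0.35, edgeR adjusted p = 0.000296), and it varied from 6.86 to 17.5 CPM among tumours. SLC2A3, a glucose transporter, had 30.6, 48.1 and 33 CPM in BBOX1 xenografts, against 16.9, 19.3 and 16.4 CPM in BBOX1 cells (log2 fold change 1.09, SE 0.17, edgeR adjusted p = 0.000538).

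Most tested collagens rose. Of 19 tested collagens, 13 rose, 2 fell and 4 did not pass, with a median of 1.97. COL3A1 had 97.9, 67.2 and 86.7 CPM in BBOX1 xenografts, against 0.0742, 0 and 0.252 CPM in BBOX1 cells (log2 fold change 9.64, SE 0.36, edgeR adjusted p = 2.74e-07), and COL1A1 had 154, 300 and 283 CPM in BBOX1 xenografts, against 7.57, 6.33 and 6.93 CPM in BBOX1 cells (log2 fold change 5.14, SE 0.27, edgeR adjusted p = 1.34e-06). The tumours lay far above the cultures for both, while COL1A2, whose chain joins that of COL1A1 in type I collagen, had 3 counts in the xenografts and none in the cells. COL1A1 and COL3A1 are themselves fibroblast markers and made up most of that sum, at 296 to 379 CPM in xenografts and 12.6 to 15.0 in cells. The sum is thus no separate reading beside these collagens, and the part of fibroblasts was not tested. The 2 collagens that fell were the paired chains of basement membrane, COL4A1 with 298, 133 and 137 CPM in BBOX1 xenografts, against 483, 486 and 500 CPM in BBOX1 cells (log2 fold change -1.37, SE 0.28, edgeR adjusted p = 0.00211) and COL4A2 with 465, 236 and 240 CPM in BBOX1 xenografts, against 717, 719 and 741 CPM in BBOX1 cells (log2 fold change -1.21, SE 0.24, edgeR adjusted p = 0.00179). The first tumour lay between the other two and the cultures for each chain, and without it 4 collagens passed as lower. The filter left 6 of 25 named collagens untested. With no filter on low counts, 6 of the 25 passed as lower in place of 2.

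Of 36 tested matrix glycoproteins and remodelling enzymes, 25 rose, 8 fell and 3 did not pass, with a median of 0.81. BGN, the proteoglycan biglycan, had 79.3, 59.4 and 75.6 CPM in BBOX1 xenografts, against 0.371, 0.541 and 0.315 CPM in BBOX1 cells (log2 fold change 7.43, SE 0.21, edgeR adjusted p = 8.47e-08). MMP7, matrilysin, an epithelial protease, had 535, 446 and 556 CPM in BBOX1 xenografts, against 10, 9.64 and 7.63 CPM in BBOX1 cells (log2 fold change 5.81, SE 0.15, edgeR adjusted p = 7.34e-08). Interstitial collagenases went the other way, MMP1 with 0.139, 0 and 0.0647 CPM in BBOX1 xenografts, against 5.53, 7.9 and 6.81 CPM in BBOX1 cells (ratio 96.9 in favour of the cells, 95% counting interval 32.9 to 472, edgeR adjusted p = 6.95e-06) and MMP13 with 0.973, 3.06 and 0.647 CPM in BBOX1 xenografts, against 11, 12.2 and 11.5 CPM in BBOX1 cells (log2 fold change -2.90, SE 0.42, edgeR adjusted p = 0.000306). Proteases of one family thus moved in both directions. LAMA4, a laminin chain, rose with 17.1, 1.88 and 5.44 CPM in BBOX1 xenografts, against 0.519, 0.541 and 0.693 CPM in BBOX1 cells (log2 fold change 3.80, SE 0.77, edgeR adjusted p = 0.00193), with the first tumour far above the second.

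Of 30 tested genes of epithelial junctions and keratins, 19 rose, 7 fell and 4 did not pass, with a median of 1.09. CDH1, E-cadherin of adherens junctions, had 24.5, 14.6 and 11.3 CPM in BBOX1 xenografts, against 0.297, 0.217 and 0 CPM in BBOX1 cells (log2 fold change 6.39, SE 0.52, edgeR adjusted p = 1.21e-05). JUP, plakoglobin, had 50.7, 48.4 and 34.5 CPM in BBOX1 xenografts, against 0.742, 0.866 and 0.946 CPM in BBOX1 cells (log2 fold change 5.72, SE 0.22, edgeR adjusted p = 3.07e-07). TJP1, the tight junction scaffold ZO-1, fell, with 83.6, 66.2 and 59.8 CPM in BBOX1 xenografts, against 180, 175 and 168 CPM in BBOX1 cells (log2 fold change -1.32, SE 0.13, edgeR adjusted p = 2.87e-05), and so did KRT81, with 0.278, 0 and 0.0647 CPM in BBOX1 xenografts, against 2.78, 2.6 and 2.65 CPM in BBOX1 cells (log2 fold change -4.48, SE 0.57, edgeR adjusted p = 0.000142). Both junction components that rose were under 1 CPM in every culture, whereas the scaffold was read throughout.

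Targets of YAP and SRF and genes of the actin cytoskeleton fell more often than they rose, with 7 risen, 18 fallen and 8 not passing of 33 tested and a median of -0.39. ANKRD1, a YAP target, had 0.903, 0.904 and 1.04 CPM in BBOX1 xenografts, against 16.4, 15.4 and 17.2 CPM in BBOX1 cells (log2 fold change -4.09, SE 0.18, edgeR adjusted p = 5.63e-07). AXL, a receptor tyrosine kinase, had 123, 122 and 113 CPM in BBOX1 xenografts, against 602, 604 and 611 CPM in BBOX1 cells (log2 fold change -2.34, SE 0.09, edgeR adjusted p = 2.66e-07). THBS1, thrombospondin, had 231, 87.8 and 126 CPM in BBOX1 xenografts, against 797, 765 and 757 CPM in BBOX1 cells (log2 fold change -2.38, SE 0.30, edgeR adjusted p = 0.000129). The tumours agreed closely for ANKRD1 and AXL, while the first was highest for THBS1. Members that rose included TPM2, a tropomyosin, with 80.2, 132 and 144 CPM in BBOX1 xenografts, against 11.5, 10.7 and 11.8 CPM in BBOX1 cells (log2 fold change 3.39, SE 0.21, edgeR adjusted p = 3.48e-06), and F3, tissue factor, with 68.3, 247 and 156 CPM in BBOX1 xenografts, against 32.6, 30.7 and 32.5 CPM in BBOX1 cells (log2 fold change 2.30, SE 0.38, edgeR adjusted p = 0.000614). ACTA2, smooth muscle actin, which is also a fibroblast marker and overlaps FAS, had 4.03, 6.19 and 7.45 CPM in BBOX1 xenografts, against 1.34, 1.35 and 1.26 CPM in BBOX1 cells (log2 fold change 2.15, SE 0.28, edgeR adjusted p = 0.000156).

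More ligands and receptors of the EGF family fell than rose. Of 11 tested, 1 rose, 6 fell and 4 did not pass, with a median of -0.96. EREG, epiregulin, had 7.09, 2.99 and 2.85 CPM in BBOX1 xenografts, against 282, 266 and 273 CPM in BBOX1 cells (log2 fold change -5.99, SE 0.29, edgeR adjusted p = 9.69e-07). NRG1, neuregulin, had 7.71, 5.84 and 5.37 CPM in BBOX1 xenografts, against 49.9, 53.9 and 52.1 CPM in BBOX1 cells (log2 fold change -3.04, SE 0.14, edgeR adjusted p = 7.86e-07). AREG, amphiregulin, had 1.11, 0.974 and 0.712 CPM in BBOX1 xenografts, against 6.16, 5.58 and 4.48 CPM in BBOX1 cells (log2 fold change -2.54, SE 0.27, edgeR adjusted p = 5.05e-05). The ligand that rose was TGFA, with 510, 567 and 382 CPM in BBOX1 xenografts, against 308, 299 and 298 CPM in BBOX1 cells (log2 fold change 0.69, SE 0.14, edgeR adjusted p = 0.00187). For each of these ligands the tumours did not overlap the cultures, as in 11788 of all 15906 genes tested. Without xenograft replicate 2 or any 1 cell library, 2 members passed as higher.

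Immediate early and ERK feedback genes were divided, with 12 risen, 10 fallen and 2 not passing of 24 tested and a median of 0.60. EGR1, an early growth response factor, had 80.6, 74.1 and 197 CPM in BBOX1 xenografts, against 16.3, 17.1 and 15.3 CPM in BBOX1 cells (log2 fold change 2.85, SE 0.36, edgeR adjusted p = 0.000123), and EGR2 had 11.5, 17.2 and 27.8 CPM in BBOX1 xenografts, against 1.22, 0.595 and 0.504 CPM in BBOX1 cells (log2 fold change 4.50, SE 0.42, edgeR adjusted p = 2.54e-05). FOSL1, a component of AP-1, fell, with 15, 20.6 and 19.3 CPM in BBOX1 xenografts, against 161, 158 and 161 CPM in BBOX1 cells (log2 fold change -3.13, SE 0.12, edgeR adjusted p = 3.7e-07). ETV4 and ETV5, transcription factors induced by ERK, had log2 fold changes of -2.45 and -1.85 (edgeR adjusted p = 0.000346 and 0.000111). EGR1 was highest in the third tumour, well above the others.

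Genes of cell division were lower in tumours. Of 46 tested proliferation genes, none rose, 45 fell and 1 did not pass, and 38 fell at least 2-fold, with a median of -1.57 and a range of -2.32 to 0.06. ORC1, a subunit of the origin recognition complex, had 11.6, 8.35 and 6.93 CPM in BBOX1 xenografts, against 46.4, 48 and 39.6 CPM in BBOX1 cells (log2 fold change -2.32, SE 0.18, edgeR adjusted p = 1e-05). CDC6, which loads the replicative helicase, had 17.9, 14.6 and 11 CPM in BBOX1 xenografts, against 67.8, 71.7 and 75.1 CPM in BBOX1 cells (log2 fold change -2.30, SE 0.16, edgeR adjusted p = 5.86e-06). BUB1, a kinase of the spindle checkpoint, had 52.1, 36.2 and 36 CPM in BBOX1 xenografts, against 203, 202 and 199 CPM in BBOX1 cells (log2 fold change -2.28, SE 0.15, edgeR adjusted p = 3.72e-06). In each of these the first tumour was the highest of the 3, and none reached the cultures.

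Most genes of ribosome assembly fell as well, with none risen, 29 fallen and 5 not passing of 34 tested genes of ribosome biogenesis and MYC targets, and a median of -0.81. HSPD1, the mitochondrial chaperonin, had 332, 346 and 332 CPM in BBOX1 xenografts, against 1090, 1095 and 1112 CPM in BBOX1 cells (log2 fold change -1.71, SE 0.08, edgeR adjusted p = 1.09e-06), and it shares annotated exons with HSPE1. UTP20 and WDR43, factors that process ribosomal RNA, had log2 fold changes of -1.57 and -1.54 (edgeR adjusted p = 6.43e-05 and 4.8e-05). Among 77 cytosolic ribosomal proteins, 4 rose, 23 fell and 50 did not pass, and no member changed 2-fold. Their median was -0.12, and their reads may be shared with processed pseudogenes. With xenograft replicate 1 left out, 23 ribosomal protein genes passed as higher in place of 4, and without any other 1 library 1 or 2 did. With voom 7 passed as higher, and with no filter on low counts 37 passed as lower in place of 23. Without replicate 1, 1 gene of ribosome biogenesis passed as higher.

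Most tested genes of lipid synthesis fell. Of 26 tested genes of cholesterol synthesis and uptake, 1 rose, 21 fell and 4 did not pass, with a median of -1.37. CYP51A1, lanosterol demethylase, had 3.13, 0.556 and 1.55 CPM in BBOX1 xenografts, against 10.4, 11.2 and 10.7 CPM in BBOX1 cells (log2 fold change -2.62, SE 0.41, edgeR adjusted p = 0.000464). It was lower in every tumour than in any culture, and lowest in the second. TM7SF2, a sterol reductase, was the member that rose, with 23.2, 22.4 and 28 CPM in BBOX1 xenografts, against 5.19, 5.09 and 5.3 CPM in BBOX1 cells (log2 fold change 2.24, SE 0.14, edgeR adjusted p = 2.96e-06), and its annotated exons overlap VPS51.

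Of 21 tested genes of fatty acid synthesis and desaturation, 3 rose, 16 fell and 2 did not pass, with a median of -0.99. SCD, which makes monounsaturated fatty acids, had 54.1, 32.3 and 36.7 CPM in BBOX1 xenografts, against 877, 885 and 833 CPM in BBOX1 cells (log2 fold change -4.40, SE 0.19, edgeR adjusted p = 5.63e-07). FASN, fatty acid synthase, had 143, 139 and 128 CPM in BBOX1 xenografts, against 719, 686 and 696 CPM in BBOX1 cells (log2 fold change -2.36, SE 0.09, edgeR adjusted p = 3.07e-07). ACSL3, an acyl-CoA synthetase, had 45.3, 34.4 and 40.1 CPM in BBOX1 xenografts, against 187, 184 and 187 CPM in BBOX1 cells (log2 fold change -2.22, SE 0.11, edgeR adjusted p = 1.18e-06). The first tumour was the highest for each, and still far below every culture. ACACB, the acetyl-CoA carboxylase at mitochondria whose product inhibits CPT1, rose, with 14, 12.6 and 17.9 CPM in BBOX1 xenografts, against 5.42, 6.6 and 5.99 CPM in BBOX1 cells (log2 fold change 1.31, SE 0.17, edgeR adjusted p = 0.000182).

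Genes of fatty acid oxidation, the process that carnitine serves, rose more often than they fell. Of 21 tested genes of fatty acid oxidation and the carnitine shuttle, 12 rose, 3 fell and 6 did not pass. None fell 2-fold, and the median was 0.41. CPT1A, which attaches fatty acids to carnitine at the outer mitochondrial membrane, had 57, 46.7 and 57.2 CPM in BBOX1 xenografts, against 7.53, 6.44 and 6.49 CPM in BBOX1 cells (log2 fold change 2.97, SE 0.13, edgeR adjusted p = 5.63e-07). ACAA2, a mitochondrial thiolase, had 47, 43.4 and 51.5 CPM in BBOX1 xenografts, against 14.7, 15.5 and 16.3 CPM in BBOX1 cells (log2 fold change 1.61, SE 0.11, edgeR adjusted p = 4.19e-06). PPARGC1A, a coactivator of mitochondrial genes, had 12.8, 7.23 and 7.06 CPM in BBOX1 xenografts, against 3.38, 3.3 and 2.65 CPM in BBOX1 cells (log2 fold change 1.53, SE 0.27, edgeR adjusted p = 0.000917). For CPT1A and ACAA2 the tumours were even, and for PPARGC1A the first was highest. PPARA, the fatty acid receptor that activates such genes, fell, with 29.1, 18.6 and 21.8 CPM in BBOX1 xenografts, against 45.4, 43.4 and 43.4 CPM in BBOX1 cells (log2 fold change -0.93, SE 0.15, edgeR adjusted p = 0.000612). When the first xenograft was left out, 6 members of this list passed as lower in place of 3.

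Of 6 tested genes of carnitine synthesis and its amino acid supply, 2 rose and 2 fell. Those that rose were BBOX1, which was expressed from a vector, and SLC22A4, a transporter of organic cations, with 10.6, 11.3 and 9 CPM in BBOX1 xenografts, against 4.38, 5.47 and 3.97 CPM in BBOX1 cells (log2 fold change 1.16, SE 0.18, edgeR adjusted p = 0.000505). SHMT2, serine hydroxymethyltransferase of mitochondria, fell, with 109, 93.1 and 86.7 CPM in BBOX1 xenografts, against 239, 237 and 236 CPM in BBOX1 cells (log2 fold change -1.30, SE 0.10, edgeR adjusted p = 9.7e-06). The other that fell was SHMT1, with a log2 fold change of -0.56 (edgeR adjusted p = 0.00767). With any 1 cell library left out BBOX1 did not pass, which left 1 risen member.

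Of 14 tested genes of the lipid droplet, 7 rose, 5 fell and 2 did not pass, with a median of 0.44. PLIN2, a coat protein of droplets, had 286, 303 and 284 CPM in BBOX1 xenografts, against 114, 114 and 118 CPM in BBOX1 cells (log2 fold change 1.33, SE 0.08, edgeR adjusted p = 2.65e-06). HILPDA, an inhibitor of the lipase ATGL, had 65.3, 97 and 71 CPM in BBOX1 xenografts, against 17, 15.1 and 17.3 CPM in BBOX1 cells (log2 fold change 2.24, SE 0.16, edgeR adjusted p = 6.16e-06). PLIN3, another coat protein, fell, with 112, 93.3 and 87.1 CPM in BBOX1 xenografts, against 229, 218 and 229 CPM in BBOX1 cells (log2 fold change -1.21, SE 0.11, edgeR adjusted p = 1.97e-05). The 2 coat proteins thus moved in opposite directions. Tumours and cultures did not overlap for either, as in 11788 of all 15906 genes tested. CD36, a fatty acid transporter, had 2.78, 1.67 and 3.17 CPM in BBOX1 xenografts, against 0.0742, 0 and 0.063 CPM in BBOX1 cells (ratio 52.2 in favour of the xenografts, 95% counting interval 17.4 to 257, edgeR adjusted p = 5.11e-05).

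**Figure D4:**
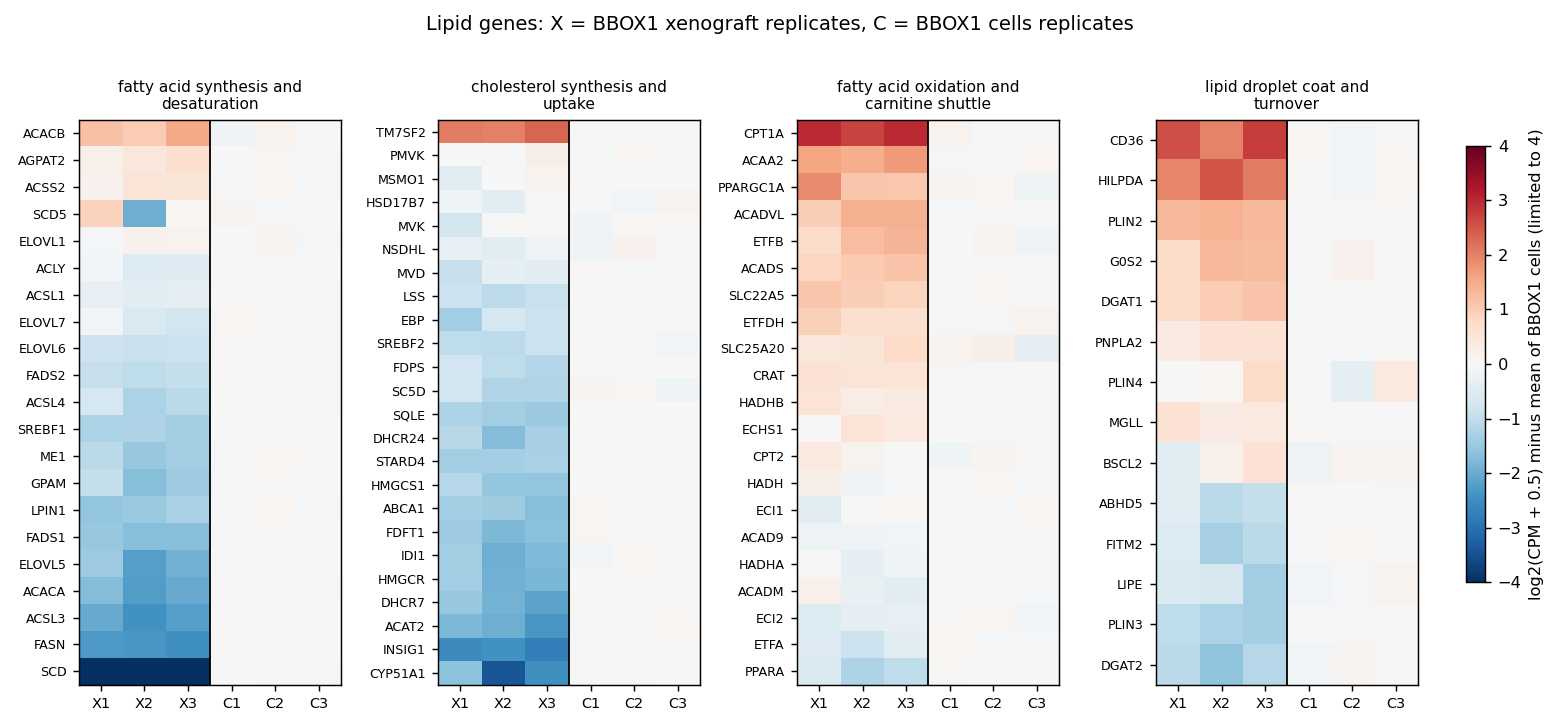
Lipid genes in each library as log2(CPM + 0.5) minus the mean of BBOX1 cells, limited to 4 in either direction, with xenograft replicates (X1 to X3) left of cells (C1 to C3). Red is above and blue below the mean of the cells. Synthesis and cholesterol genes are mostly blue in the 3 xenografts and the oxidation list is mixed, with CPT1A at its top.

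Most tested genes of amino acid supply that ATF4 activates fell. Of 39, 2 rose, 27 fell and 10 did not pass, with a median of -1.19. SLC7A11, the cystine transporter, which NRF2 also activates, had 5.49, 3.34 and 3.43 CPM in BBOX1 xenografts, against 87.5, 93.2 and 82.3 CPM in BBOX1 cells (log2 fold change -4.42, SE 0.18, edgeR adjusted p = 3.7e-07). CBS, cystathionine beta-synthase, had 3.54, 2.16 and 2.14 CPM in BBOX1 xenografts, against 17.3, 24.8 and 18.3 CPM in BBOX1 cells (log2 fold change -2.95, SE 0.24, edgeR adjusted p = 1.23e-05). NUPR1, a stress-induced nuclear protein, rose, with 24, 36.2 and 47.1 CPM in BBOX1 xenografts, against 14.2, 13.8 and 14 CPM in BBOX1 cells (log2 fold change 1.35, SE 0.21, edgeR adjusted p = 0.000484). The other that rose was CEBPB, with 69.8, 80.5 and 82.7 CPM in BBOX1 xenografts, against 45.5, 46.7 and 50.4 CPM in BBOX1 cells (log2 fold change 0.71, SE 0.10, edgeR adjusted p = 0.000231). Leaving out the first xenograft gave 4 members as higher.

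NRF2 targets, which serve defence against oxidants, had 3 risen, 18 fallen and 2 not passing of 23 tested, with a median of -0.87. TXNRD1, thioredoxin reductase, had 77.2, 48.3 and 48 CPM in BBOX1 xenografts, against 447, 457 and 451 CPM in BBOX1 cells (log2 fold change -2.97, SE 0.18, edgeR adjusted p = 3.08e-06). AKR1B10 had 0.903, 0.765 and 0.777 CPM in BBOX1 xenografts, against 10.1, 7.8 and 9.14 CPM in BBOX1 cells (log2 fold change -3.46, SE 0.23, edgeR adjusted p = 4.11e-06). The 3 that rose were ABCC3, AKR1C3 and AKR1C1. ABCC3, an efflux pump of organic anions, had 337, 365 and 406 CPM in BBOX1 xenografts, against 136, 126 and 126 CPM in BBOX1 cells (log2 fold change 1.51, SE 0.10, edgeR adjusted p = 3.83e-06), AKR1C3 had a log2 fold change of 2.11 (edgeR adjusted p = 1.98e-06) and AKR1C1 of 2.34 (edgeR adjusted p = 0.00026). AKR1C genes are close copies, and their counts are uncertain.

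HSP90AA1, HSPA8 and HSP90AB1, cytosolic chaperones, fell and were named by their loss in CPM, and no list of cytosolic chaperones was tested. The small heat shock protein CRYAB, given above, rose. HSP90AA1, the inducible HSP90, had 356, 215 and 260 CPM in BBOX1 xenografts, against 1727, 1743 and 1698 CPM in BBOX1 cells (log2 fold change -2.64, SE 0.18, edgeR adjusted p = 4.48e-06). HSPA8, the constitutive HSP70, had 550, 216 and 285 CPM in BBOX1 xenografts, against 1833, 1884 and 1840 CPM in BBOX1 cells (log2 fold change -2.40, SE 0.30, edgeR adjusted p = 0.000125). HSP90AB1, the constitutive HSP90, had 1010, 812 and 839 CPM in BBOX1 xenografts, against 2299, 2311 and 2285 CPM in BBOX1 cells (log2 fold change -1.37, SE 0.11, edgeR adjusted p = 1.17e-05). The first tumour was highest for all 3, and processed pseudogenes make the counts of HSP90 genes uncertain. Chaperones of the endoplasmic reticulum and the unfolded protein response moved less, with 7 risen, 14 fallen and 5 not passing of 26 and a median of -0.33. SEL1L, of the degradation pathway of that compartment, had 81.4, 46.7 and 44.6 CPM in BBOX1 xenografts, against 137, 143 and 137 CPM in BBOX1 cells (log2 fold change -1.27, SE 0.21, edgeR adjusted p = 0.000585), while ERN1, the sensor IRE1, had 31.9, 22.7 and 26 CPM in BBOX1 xenografts, against 9.68, 12.2 and 12.2 CPM in BBOX1 cells (log2 fold change 1.25, SE 0.16, edgeR adjusted p = 0.000141).

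All 13 mRNAs encoded by mitochondrial DNA rose, each at least 2-fold, with a median of 1.99 and a range of 1.30 to 2.40. MT-CO1, a subunit of cytochrome oxidase, had 20071, 35235 and 40433 CPM in BBOX1 xenografts, against 7188, 7072 and 7126 CPM in BBOX1 cells (log2 fold change 2.16, SE 0.24, edgeR adjusted p = 6.13e-05). MT-ND3, of complex I, had 1766, 3043 and 3515 CPM in BBOX1 xenografts, against 526, 544 and 504 CPM in BBOX1 cells (log2 fold change 2.40, SE 0.23, edgeR adjusted p = 2.73e-05). The first tumour had the smallest rise in both, and the share of mitochondrial counts given above moves with them. Nuclear genes of oxidative phosphorylation were evenly split, with 16 risen, 16 fallen and 22 not passing of 54 and a median of 0.06. ATP5F1B, the catalytic subunit of ATP synthase, had 423, 270 and 302 CPM in BBOX1 xenografts, against 681, 675 and 677 CPM in BBOX1 cells (log2 fold change -1.03, SE 0.16, edgeR adjusted p = 0.00037), while COX6A1 had 38.2, 56.5 and 52.2 CPM in BBOX1 xenografts, against 28.9, 28.4 and 26.4 CPM in BBOX1 cells (log2 fold change 0.81, SE 0.14, edgeR adjusted p = 0.000939). Without xenograft replicate 3, or cell replicate 1 or 3, 9 members passed as higher in place of 16.

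The series title names TBK1 and mTORC1, a kinase of innate immunity and a kinase complex of growth control. TBK1 had 27.9, 23.5 and 21.2 CPM in BBOX1 xenografts, against 28.9, 28.9 and 24.9 CPM in BBOX1 cells (log2 fold change -0.19, SE 0.13, edgeR adjusted p = 0.209) and did not pass. The first tumour lay within the range of the cultures, and without it the log2 fold change was -0.37 (edgeR adjusted p = 0.00552). MTOR had 101, 74.4 and 85.7 CPM in BBOX1 xenografts, against 145, 144 and 143 CPM in BBOX1 cells (log2 fold change -0.73, SE 0.11, edgeR adjusted p = 0.000469), and RPTOR, the scaffold of mTORC1, had 57.1, 57.1 and 55.6 CPM in BBOX1 xenografts, against 96.7, 86.5 and 94.2 CPM in BBOX1 cells (log2 fold change -0.71, SE 0.08, edgeR adjusted p = 9.88e-05). Both were lower in every tumour.

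The list of the TBK1 module had 9 risen, 7 fallen and 5 not passing of 21, with a median of 0.26. IRF7, the factor that amplifies interferon induction, had 14.3, 28.4 and 32.4 CPM in BBOX1 xenografts, against 4.12, 4.11 and 3.85 CPM in BBOX1 cells (log2 fold change 2.63, SE 0.29, edgeR adjusted p = 5.87e-05). TMEM173, which encodes STING, had 73, 89 and 89.3 CPM in BBOX1 xenografts, against 26.9, 29 and 27.5 CPM in BBOX1 cells (log2 fold change 1.59, SE 0.11, edgeR adjusted p = 4.75e-06), and IKBKE, a kinase related to TBK1, had 47.8, 44.9 and 44.3 CPM in BBOX1 xenografts, against 21, 18.9 and 19.5 CPM in BBOX1 cells (log2 fold change 1.20, SE 0.09, edgeR adjusted p = 1.02e-05). MAVS, the adaptor of RNA sensing, and CGAS, the sensor of cytosolic DNA, had log2 fold changes of -0.97 and -0.71 (edgeR adjusted p = 3.32e-05 and 0.00114). Genes of mTORC1 and nutrient sensing had 11 risen, 11 fallen and 16 not passing of 38, with a median of 0.03. DEPTOR, an inhibitor of MTOR, had 2.71, 2.64 and 2.72 CPM in BBOX1 xenografts, against 0.668, 0.541 and 0.567 CPM in BBOX1 cells (log2 fold change 2.16, SE 0.28, edgeR adjusted p = 0.000158).

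Of 38 lysosome and autophagy genes, 11 rose, 11 fell and 16 did not pass, with a median of -0.03. GAA, acid glucosidase, had 120, 113 and 135 CPM in BBOX1 xenografts, against 34.5, 31.1 and 30.3 CPM in BBOX1 cells (log2 fold change 1.94, SE 0.10, edgeR adjusted p = 1.51e-06), and NPC1, which exports cholesterol from lysosomes, had 70.6, 69.9 and 63.3 CPM in BBOX1 xenografts, against 235, 215 and 222 CPM in BBOX1 cells (log2 fold change -1.72, SE 0.09, edgeR adjusted p = 1.3e-06). After removal of xenograft replicate 1, 19 members of this list passed as lower in place of 11. Targets of p53 had 13 risen, 4 fallen and 7 not passing of 24, with a median of 0.43. TP53I3 had 19.3, 19.3 and 26.2 CPM in BBOX1 xenografts, against 4.49, 4.6 and 4.35 CPM in BBOX1 cells (log2 fold change 2.27, SE 0.16, edgeR adjusted p = 7.03e-06), and PMAIP1, which encodes the death factor NOXA, fell, with 11.7, 9.95 and 11 CPM in BBOX1 xenografts, against 39.4, 40.5 and 39.5 CPM in BBOX1 cells (log2 fold change -1.87, SE 0.10, edgeR adjusted p = 1.92e-06). In the fit without the first xenograft, 7 targets passed as lower in place of 4.

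The largest falls included genes read in every culture and in no tumour. ATOH8, a helix-loop-helix transcription factor, had 0, 0 and 0 CPM in BBOX1 xenografts, against 16.8, 16 and 16.1 CPM in BBOX1 cells (at least 241-fold lower, edgeR adjusted p = 1.9e-06). TEX15, a protein of germ cells, had 0, 0 and 0 CPM in BBOX1 xenografts, against 6.45, 7.31 and 5.48 CPM in BBOX1 cells (at least 95.2-fold lower, edgeR adjusted p = 1.41e-05). CRISPLD2, a secreted protein, had 0.417, 0.139 and 0.129 CPM in BBOX1 xenografts, against 22.1, 22.8 and 23.7 CPM in BBOX1 cells (log2 fold change -6.61, SE 0.27, edgeR adjusted p = 4.14e-07). SYNJ2, a phosphoinositide phosphatase, had 13.6, 9.04 and 8.35 CPM in BBOX1 xenografts, against 251, 229 and 238 CPM in BBOX1 cells (log2 fold change -4.54, SE 0.18, edgeR adjusted p = 3.57e-07). Other members of this group were C2CD4C, GPR15, SHISA2 and PHOSPHO1, with log2 fold changes of -5.61, -5.46, -5.22 and -4.88 (edgeR adjusted p = 3.03e-06, 2.07e-05, 0.000176 and 3.27e-05).

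To see where these changes differed from those without BBOX1, the xenograft-minus-cells change was set against the same change with the empty vector in 1 fit of all 12 libraries. Of 16927 genes tested, 326 (1.93%) had a higher change with BBOX1 and 552 (3.26%) a lower one. With library sizes left unscaled the counts were 398 and 282, so the balance of higher and lower depends on scaling. Without BBOX1 xenograft replicate 1 they were 1432 and 2750. Leaving out any of the 6 cell libraries gave 63 to 84 higher and 206 to 241 lower. Leaving out empty-vector xenograft replicates 1, 2 and 3 in turn gave 493, 93 and 193 higher, and 265 lower without replicate 2, while leaving out BBOX1 xenograft replicate 3 gave 167 higher. The overlap was read from 2 separate fits, each of the 6 libraries of 1 setting, with its own filter and spread. Calls there needed an edgeR adjusted p under 0.05 and a change of at least 2-fold. Of genes tested in both fits, 2334 were higher in both, which was 70.7% of 3301 with BBOX1 and 88.5% of 2636 with the empty vector. Lower in both were 1223, which was 61.8% of 1979 with BBOX1 and 80.1% of 1526 with the empty vector, and 7 went in opposite directions.

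A part of the proliferation genes fell further with BBOX1. Of 46, 17 had a lower change with BBOX1, none a higher one and 29 did not pass, and the medians were -1.59 with BBOX1 and -0.97 with the empty vector. Across 20 alternatives 7 to 39 members were lower and none higher, with 8 lower on unscaled totals and 7 or 8 with any 1 cell library left out. Genes of ATF4 and amino acid supply had 12 of 39 lower and none higher (9 to 21 lower and at most 1 higher across alternatives), with medians of -1.21 and -0.48. Glycolysis genes had 10 of 25 lower and none higher (5 to 15 lower), with medians of -0.31 and 0.06. NRF2 targets had 8 of 24 lower and none higher. Across alternatives 4 to 13 of them were lower, and up to 2 were higher, the 2 without BBOX1 xenograft replicate 1. HIF targets had 9 of 39 lower, and 3 to 18 across alternatives, with none higher in any. With any 1 cell library left out 3 HIF targets were lower, and without BBOX1 xenograft replicates 1 and 2 in turn 17 and 15 were. Genes of the motile cilium had 4 of 33 with a higher change with BBOX1 and none lower (0 to 11 higher across alternatives).

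Single genes show the sizes. TXNRD1 changed by -2.98 with BBOX1 and -1.16 with the empty vector, a difference of -1.82 (SE 0.21, edgeR adjusted p = 0.000332). SLC7A11 changed by -4.44 with BBOX1 and -3.42 with the empty vector, a difference of -1.03 (SE 0.20, edgeR adjusted p = 0.012). Both fell in both settings and fell further with BBOX1. PLIN2 changed by 1.32 with BBOX1 and 2.47 with the empty vector, a difference of -1.15 (SE 0.12, edgeR adjusted p = 0.000252), so its rise was smaller with BBOX1. ANPEP changed by -0.24 with BBOX1 and 1.07 with the empty vector, a difference of -1.31 (SE 0.21, edgeR adjusted p = 0.00348), and WT1 by -0.78 with BBOX1 and 0.26 with the empty vector, a difference of -1.03 (SE 0.20, edgeR adjusted p = 0.0102). The fitted changes of these 2 were negative with BBOX1 and positive with the empty vector. TP53INP1, a p53 target, changed by 2.11 with BBOX1 and 1.21 with the empty vector, a difference of 0.90 (SE 0.16, edgeR adjusted p = 0.00785), a larger rise with BBOX1, and CXCL1 by 5.83 with BBOX1 and 4.46 with the empty vector, a difference of 1.36 (SE 0.34, edgeR adjusted p = 0.0325). The call of CXCL1 was lost with any 1 of the 6 cell libraries or empty-vector xenograft replicate 2 or 3 left out, at edgeR adjusted p = 0.0627 to 0.0934.

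**Figure D5:**
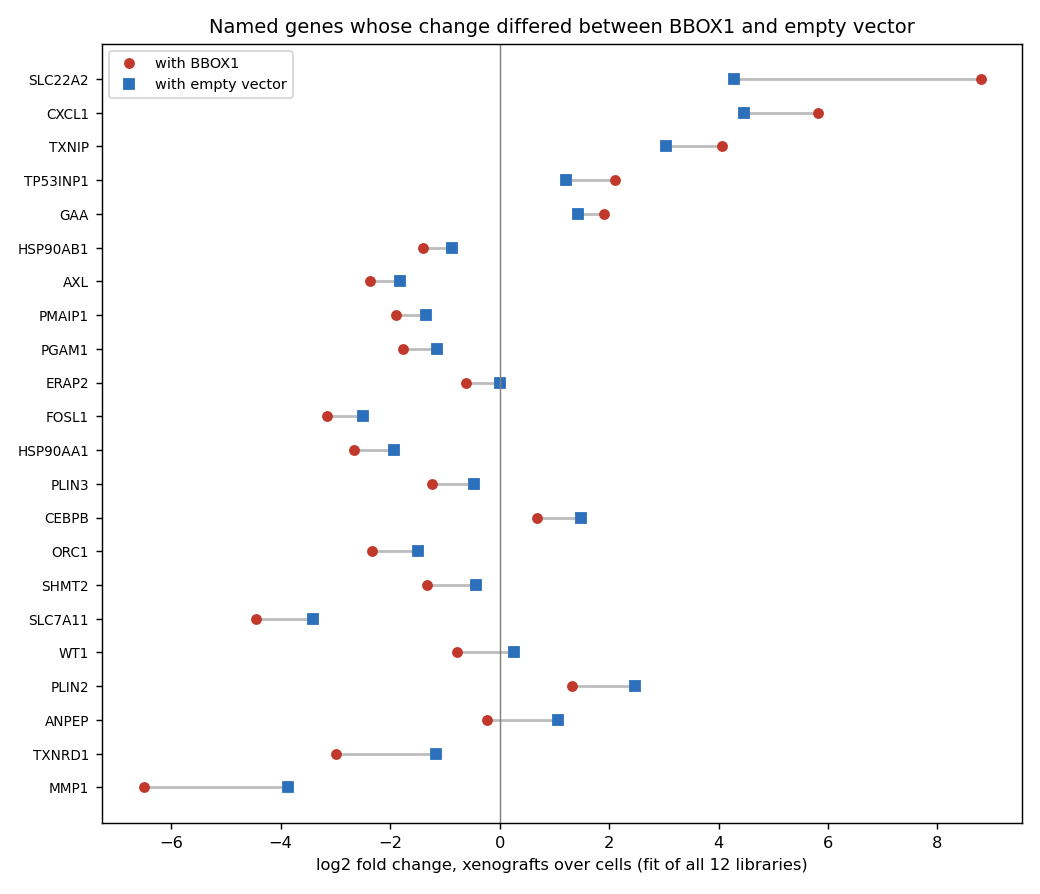
Log2 fold change of xenografts over cells with BBOX1 (red circles) and with the empty vector (blue squares), for named genes in which the 2 changes differed at an edgeR adjusted p under 0.05, from the fit of all 12 libraries. Genes are ordered by the difference, and most of the points with BBOX1 lie left of those with the empty vector.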

How the data were processed

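Polyadenylated RNA of 12 libraries (4 groups of 3) was sequenced from NEBNext Ultra libraries, a kit that does not mark strand, as paired ends, per the labels' protocols. The deposited table gives un-normalised whole-number counts for each gene. Per the submitters' processing notes, fastp, STAR, featureCounts and DESeq2 were used with build hg38. Tool roles, annotation release, strand setting and whether mouse reads were removed: not given in the sources used here. Gene coordinates and overlaps came from GENCODE release 29 (all 58735 identifiers matched). Without strand, reads of genes that share exonic bases cannot be told apart.

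Counts of BBOX1 xenografts and BBOX1 cells were fitted with edgeR 4.0.16 under R 4.3.3 (filterByExpr at a minimum count of 10, TMM scaling, quasi-likelihood F test, Benjamini-Hochberg adjustment, threshold 0.05). SE was obtained from the F statistic, as the size of the log2 fold change over its square root, and is approximate near 0 counts. The difference from the empty vector used all 12 libraries, and the overlap of 2-fold changes used a separate fit for each vector. Both designs were also run on simulated counts, with the same spread in each group and few changed genes. These data differ in both respects, so that run does not vouch for the calls given here. The members, the 32 pathway and 9 marker lists and the tests were chosen with earlier results of these data known.

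Genes were named by rule. BBOX1, TBK1, MTOR and RPTOR were always named. Protein-coding genes past the threshold, without overlap between groups and averaging 5 CPM or more in the higher group, gave the 12 largest rises and falls by fold and 6 by CPM difference. Each pathway list gave up to 3 rises and 3 falls at 1 CPM or more, and each marker list its 3 highest genes in xenografts. A part of these is printed, and some genes are not reported here. Same-numbered libraries of the groups had correlations of deviations of -0.024, -0.022 and -0.0044, so replicate numbers were not taken as pairs. Alternatives were size factors of DESeq2, unscaled totals, no filter, 1 CPM in 3 libraries, DESeq2 1.42.0, limma 3.58.1 (voom), protein-coding genes alone, the replicate block, all 12 libraries in 1 fit and each library left out. Ratios have exact counting intervals at 95%, and bounds set 3 counts in place of 0 and have no interval. The intervals cover counting error only, since the libraries carried no molecular identifiers that the labels name.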

Additional observations from a re-analysis of the deposited data

Results flagged for a closer look

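In the fit of all 12 libraries, the change between xenografts and cells differed between BBOX1 and the empty vector at an edgeR adjusted p under 0.05 for 22 genes named here. Values are the log2 fold change with BBOX1 minus that with the empty vector. BBOX1 itself also passed and is left out, since it is expressed from the vector in 1 arm alone.

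Among lipid and carnitine genes the difference was -1.15 for PLIN2, -0.76 for PLIN3 and -0.90 for SHMT2. Among genes of oxidant defence and amino acid supply it was -1.82 for TXNRD1, -1.03 for SLC7A11 and -0.81 for CEBPB, and TXNIP, an inhibitor of thioredoxin chosen after its values were seen, had 1.01. Renal genes went both ways, with 4.51 for SLC22A2, -1.03 for WT1 and -1.31 for ANPEP. SLC22A2 had 1 count over the BBOX1 cells, so the size of its difference depends on the prior count of the fit. MMP1, with few counts in BBOX1 xenografts, had -2.64, and this size depends on the prior count as well.

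The chaperones HSP90AA1 and HSP90AB1 had -0.73 and -0.51. For the growth genes ORC1, FOSL1 and AXL it was -0.85, -0.66 and -0.53. PGAM1 had -0.61 and ERAP2 -0.63. The p53 targets PMAIP1 and TP53INP1 had -0.54 and 0.90. CXCL1 had 1.36, and GAA had 0.48. Calls of 12 of the 22 genes were lost under at least 1 of 20 alternatives, and none changed direction. MMP1 lost its call under 14, PGAM1 under 13, AXL, HSP90AA1, HSP90AB1 and PMAIP1 under 12, GAA and ERAP2 under 11, CXCL1 and ORC1 under 8, FOSL1 under 7 and SLC22A2 under 2. For the 8 lost most often, and for FOSL1 and CXCL1, these include each of the 6 cell libraries left out.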

How the results depend on the processing

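Under 15 alternatives the counts of higher and lower genes stayed within 1.5 times of 5740 and 5100, except that a fold of at least 2 as a further condition left 3592 and 2000. With 1 library left out, 5206 to 6289 genes were higher and 4588 to 6158 lower, and 3470 to 3879 and 1851 to 2682 at 2-fold. Of 32 lists, 16 or 17 had more risen members with 1 library left out, and 5 lists changed their balance in any alternative: carnitine synthesis, nuclear oxidative phosphorylation, lysosome, TBK1 and mTORC1. Without a filter, 6 genes of fatty acid oxidation and 5 of the interferon response passed as lower, in place of 3 each. Calls of 4 of the 165 genes examined (ANPEP, BBOX1, DTX3L and TBK1) changed under at least 1 alternative, and no direction was reversed.

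Counts of differences from the empty vector (326 higher, 552 lower) moved more. They were 570 and 1092 without a filter, 605 and 1088 with DESeq2 and 571 and 932 with voom, and unscaled totals gave 282 lower. With 1 library left out they ran over 63 to 1432 higher and 206 to 2750 lower. The cause was not tested.

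The replicate number as a block gave 5486 higher and 5000 lower genes, and 176 and 372 for the difference from the empty vector; same-numbered libraries did not correlate, so the numbers give no pairing, and a sample did not correlate best with its own number. The 3 libraries per group, and a spread that was larger among xenografts, limit what small changes can be called, and genes near 0 counts give bounds alone.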

Other observations

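The groups below were chosen after their values were seen, and their values are given as a description. All 8 subunits of the CCT chaperonin, which folds actin and tubulin, fell in BBOX1 xenografts, with log2 fold changes of -1.76 to -0.89. CCT2 had 110, 96 and 94.5 CPM in BBOX1 xenografts, against 255, 261 and 249 CPM in BBOX1 cells (log2 fold change -1.35, SE 0.09, edgeR adjusted p = 4.77e-06), and TCP1, which overlaps ACAT2, had 179, 145 and 139 CPM in BBOX1 xenografts, against 402, 408 and 399 CPM in BBOX1 cells (log2 fold change -1.39, SE 0.11, edgeR adjusted p = 1.12e-05). The 13 HSP90 and HSP70 proteins and cofactors picked here all fell as well, with log2 fold changes of -2.64 to -1.10. Other members of these families were not counted, and 32.1% of all genes tested fell. HSPH1, a nucleotide exchange factor of HSP70, had 58.4, 58.7 and 68.6 CPM in BBOX1 xenografts, against 325, 331 and 324 CPM in BBOX1 cells (log2 fold change -2.40, SE 0.10, edgeR adjusted p = 3.72e-07). STIP1, which joins HSP70 to HSP90, had 113, 130 and 128 CPM in BBOX1 xenografts, against 399, 412 and 400 CPM in BBOX1 cells (log2 fold change -1.71, SE 0.09, edgeR adjusted p = 1.39e-06). The small heat shock proteins HSPB1, HSPB8 and CRYAB rose, with HSPB1 at 1389, 2689 and 2886 CPM in BBOX1 xenografts, against 1136, 1120 and 1119 CPM in BBOX1 cells (log2 fold change 1.05, SE 0.24, edgeR adjusted p = 0.00356). Its first xenograft was nearest to the cultures.

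Genes of iron uptake, amino acid use and differentiation were among other large changes. TFRC, the transferrin receptor, had 65.7, 35.5 and 37.4 CPM in BBOX1 xenografts, against 699, 677 and 664 CPM in BBOX1 cells (log2 fold change -3.88, SE 0.23, edgeR adjusted p = 2.46e-06). BCAT1, which transaminates branched-chain amino acids, had 21.6, 20.4 and 18.6 CPM in BBOX1 xenografts, against 178, 184 and 181 CPM in BBOX1 cells (log2 fold change -3.17, SE 0.09, edgeR adjusted p = 1.09e-07). EEF1A2, a translation elongation factor, had 25.6, 25.2 and 23.9 CPM in BBOX1 xenografts, against 411, 399 and 398 CPM in BBOX1 cells (log2 fold change -4.01, SE 0.09, edgeR adjusted p = 4.03e-08). All of these were far lower in every tumour. ID1 and ID3, inhibitors of helix-loop-helix factors, had log2 fold changes of -2.85 and -3.93 (edgeR adjusted p = 1.5e-06 and 1.61e-07). CPE, carboxypeptidase E, rose, with 988, 935 and 1045 CPM in BBOX1 xenografts, against 9.01, 10.1 and 9.33 CPM in BBOX1 cells (log2 fold change 6.71, SE 0.12, edgeR adjusted p = 1.58e-08). HTRA1, a secreted protease, had 1292, 2768 and 1939 CPM in BBOX1 xenografts, against 120, 119 and 123 CPM in BBOX1 cells (log2 fold change 4.05, SE 0.26, edgeR adjusted p = 3.59e-06). TXNIP, an inhibitor of thioredoxin, had 625, 489 and 493 CPM in BBOX1 xenografts, against 33.6, 31.8 and 29.6 CPM in BBOX1 cells (log2 fold change 4.08, SE 0.13, edgeR adjusted p = 1.56e-07). HTRA1 varied most among the tumours. None of the 3 overlapped the cultures, as in 11788 of all 15906 genes tested.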
